A study of Mus musculus with 6 samples.

Results

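The collagen chain genes are the genes whose symbol in the count table is Col, a number, the letter a and a second number, such as Col1a1. The table held 44 of them among 41388 genes, and all 44 passed the filter on low counts, which left 18660 genes to test. Membership was set by symbol alone, but the family was chosen with earlier results of these data known. RNA was sequenced from lungs of adult mice, all taken at ZT7, 7 h into the light phase of a daily light and dark cycle. WT mice were C57BL/6J. KO mice, of the same genetic background and bred in the same colony, carry a deletion of the start of Zpbp2, with its first exons and part of its promoter and enhancer. The study was about links between this region and the daily clock, and neither the deletion nor the comparison was designed for collagens. Each genotype had 3 libraries, named here by genotype and replicate number (WT1 to WT3, KO1 to KO3).

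The libraries held between 59134950 (KO3) and 71354388 (WT1) counts. Zpbp2 itself had 20, 15 and 7 counts in WT1 to WT3 and 1, 0 and 0 counts in KO1 to KO3. KO2 and KO3 carry separate animal names in the labels and are separate mice by the study's account. Their libraries differed by little more than counting noise, so their counts were summed and taken as 1 sample, which gives n = 3 for WT and n = 2 for KO, and the results with all 6 libraries as separate samples are given beside. WT3 and KO1 stood apart from the other 4 libraries on the first principal component of all genes (66.5% of the variance), with high counts of squamous epithelium and skeletal muscle genes. Genotypes separated on the second component (21.9%). Lung markers were abundant in all 6 libraries, with Sftpc of the surfactant-making alveolar cell at 12100 to 19532 CPM (counts per 1000000 scaled library counts).

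Collagens are the main structural proteins of the extracellular matrix. Chains wind around each other in groups to form a helix, so the chains of a collagen type are needed in fixed proportions, and the helix is modified in the endoplasmic reticulum, secreted, trimmed and crosslinked outside the cell. Fibrillar collagens give the lung its tensile strength, type IV networks underlie alveolar epithelium and capillaries, and the remaining families coat fibrils, bridge them to other matrix or span cell membranes.

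The genes for type IV chains lie head to head in pairs, and their shared start regions are shown because partners of a pair are compared below. Start windows of 250 bases before to 50 bases after the start site were available from RefSeq (GRCm38.p6) for 35 of the 44 genes. The window of Col4a1 is chr8:11312777-11313076 on the minus strand, and the 22 bases in capitals are transcribed from both strands, from the start of Col4a2 to that of Col4a1. The window of Col4a4 is chr1:82586800-82587099 on the minus strand, and its 73 capitals run from the start of Col4a3 in the GENCODE M21 annotation to that of Col4a4, both included.
Col4a1: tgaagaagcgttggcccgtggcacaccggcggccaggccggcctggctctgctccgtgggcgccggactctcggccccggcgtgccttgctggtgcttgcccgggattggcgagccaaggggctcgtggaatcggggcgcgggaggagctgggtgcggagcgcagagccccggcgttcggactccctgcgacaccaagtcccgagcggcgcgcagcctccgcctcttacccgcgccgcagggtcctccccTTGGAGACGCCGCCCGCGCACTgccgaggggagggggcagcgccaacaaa
Col4a4: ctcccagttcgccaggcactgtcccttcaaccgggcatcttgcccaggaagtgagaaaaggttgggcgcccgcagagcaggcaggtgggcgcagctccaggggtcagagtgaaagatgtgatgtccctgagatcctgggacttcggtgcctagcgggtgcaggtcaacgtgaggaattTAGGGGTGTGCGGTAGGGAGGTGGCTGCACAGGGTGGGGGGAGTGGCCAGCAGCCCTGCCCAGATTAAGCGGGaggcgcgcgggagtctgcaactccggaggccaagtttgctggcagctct
The Col4a1 window has 74.0% G and C and the Col4a4 window 63.3%, against a median of 52.7% over all 32851 windows. The letters CCAAT and GGGCGG each occurred 1 time in the Col4a1 window, on the reverse strand and not overlapping each other, and neither was in the Col4a4 window. On either strand, CCAAT is in 37.4% and GGGCGG in 35.7% of all windows. TATAAA, which 13.6% of windows hold, was in neither window. Col4a5 and Col4a6 are also head to head, with RefSeq starts 1343 bases apart.

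Collagen chain genes took 0.638%, 0.612% and 0.706% of all counts in WT1 to WT3 and 0.638%, 0.583% and 0.583% in KO1 to KO3. The exact 95% interval of the WT1 share was 0.636% to 0.640%, which covers counting error only. Except for KO2 and KO3, libraries of a genotype differed by more than such intervals, and the genotypes overlapped. The 8 genes for chains of types I, III, IV (Col4a1 and Col4a2) and VI (Col6a1 to Col6a3) made up 69.6% to 76.6% of collagen counts. In every library 34 genes were at 1 CPM or more and 13 were at 100 CPM or more.

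Levels between genes were compared as CPM per kilobase of the longest annotated transcript. Col4a1, a chain of the common basement membrane network, was highest, with 154, 139 and 172 CPM per kb in WT1 to WT3 and 163, 150 and 147 in KO1 to KO3. Its partner Col4a2 had 134, 124 and 144 CPM per kb in WT and 143, 137 and 136 in KO. Col3a1, the chain of type III collagen in reticular fibres, had 126, 132 and 153 CPM per kb in WT and 144, 123 and 121 in KO. These 3 genes lay within the spread of each other's libraries in part: Col4a1 was above Col4a2 in all 6 libraries, while Col4a2 was above Col3a1 in 3 of 6. Next in order of mean level were Col1a2 (107 CPM per kb), Col6a1 (100.2), Col1a1 (75.2) and Col6a2 (64.1). The order depends in part on the length used: per kilobase of all annotated exons Col4a1 and Col4a2 stayed highest, followed by Col6a1 (93.8), Col3a1 (76.6), Col1a1 (67.9), Col1a2 (45.8) and Col6a2 (37.8). At the low end Col9a1 averaged 0.0245 CPM per kb, from 0 to 15 counts a library.

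**Figure D1:**
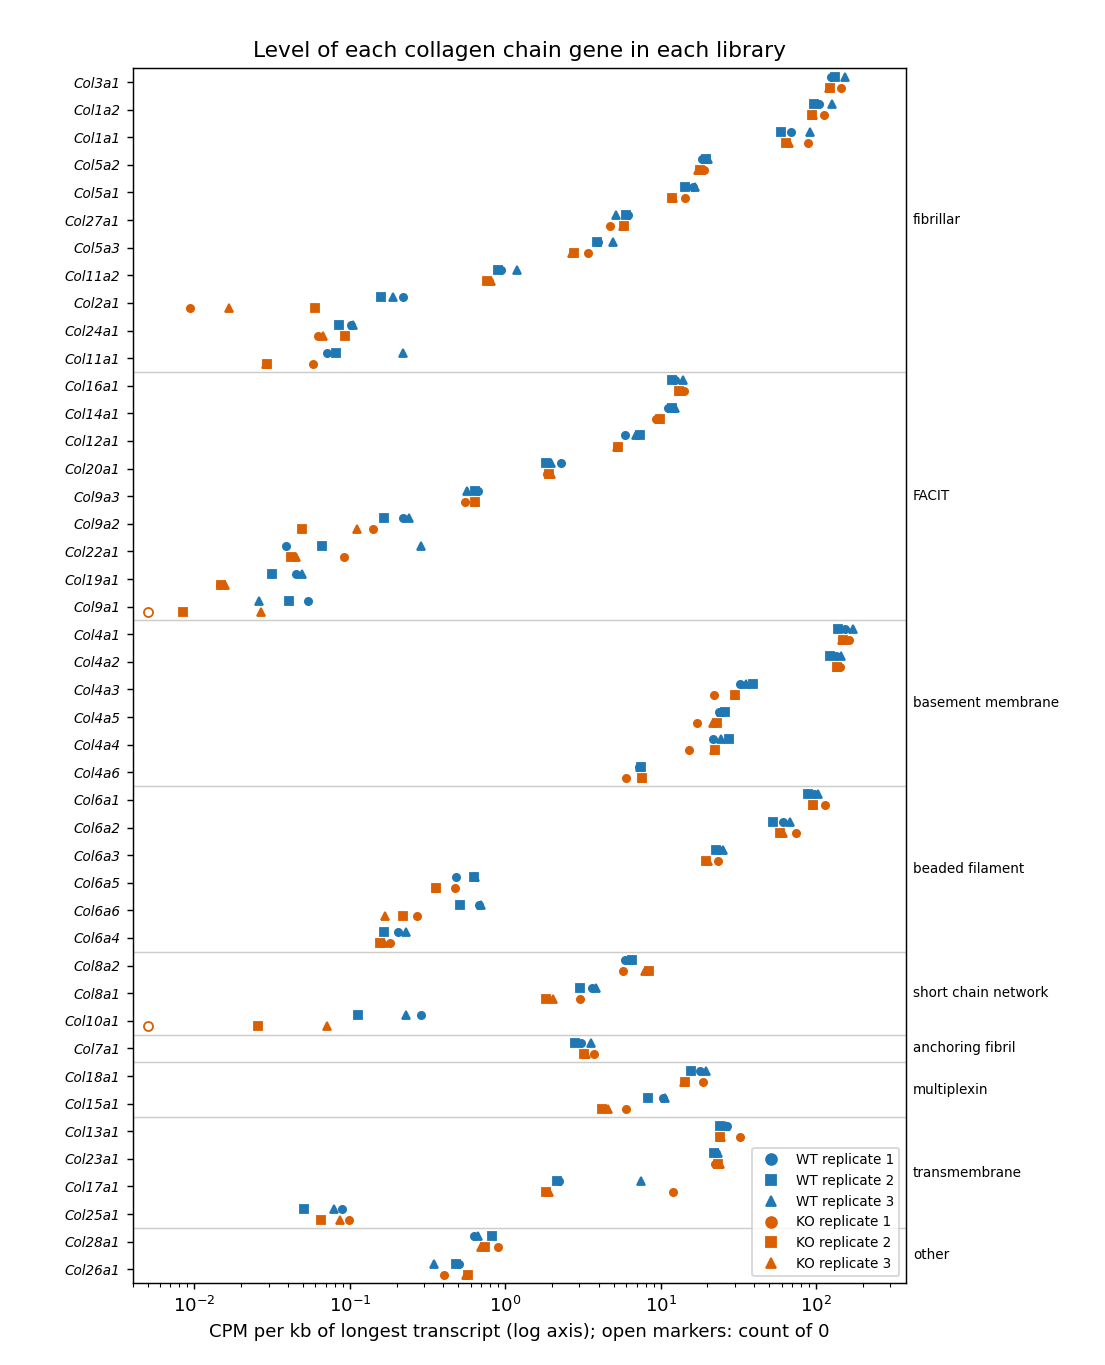
Level of the 44 collagen chain genes in each library, as CPM per kilobase of longest transcript on a log axis, with genes grouped by family, WT in blue, KO in orange and marker shape for the replicate. Levels run from 172 for Col4a1 in WT3 down to counts of 0 for Col10a1 and Col9a1 in KO1 (open markers), and for most genes the spread between genes is far larger than that between libraries.

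KO was compared with WT for all genes together. At an adjusted p of 0.05 or less, none of the collagen chain genes was called (edgeR quasi-likelihood test with Benjamini-Hochberg adjustment), where 2.28% of all tested genes were called and 0.906% were called lower in KO. The smallest adjusted p among the 44 was 0.051, for Col6a6. At an unadjusted p of 0.05 or less there were 10 genes, each lower in KO, that is 22.7% of the family against 27.3% of all genes in either direction and 13.4% lower. The log2 fold change was below 0 for 30 of the 44 genes (68.2%, against 47.8% of all tested genes), with a median of -0.14 against 0.02 over all tested genes. Long genes were more often below 0, at 61.9% of tested genes with 6 to 8 kb of exons and 80.3% of those with 8 kb or more. In these classes 10 of 15 and 15 of 19 collagens were below 0. Every KO library was below every WT library for 15 genes, or 34.1%, against 20.7% of all tested genes, 30.8% of those with 6 to 8 kb of exons and 48.0% of those with 8 kb or more. No collagen had every KO library above every WT library, a pattern shown by 20% of all tested genes, but by 10.9% of those with 6 to 8 kb of exons and 4.29% of those with 8 kb or more, the classes that hold 34 of the 44 collagens. The remaining 29 genes overlapped.

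With the 6 libraries as separate samples, 7 of 43 collagens were called, each lower in KO: Col6a6, Col15a1, Col14a1, Col2a1, Col19a1, Col12a1 and Col5a3. That is 16.3% of the family, against 18.9% of all tested genes called and 9.07% called lower. This fit counts KO2 and KO3, whose differences had 1.70 to 3.35 times the variance of counting, as independent samples. By the study's account they are separate mice. If the libraries are not independent, the p-values of this fit are too small, and the counts alone do not settle that. Over the alternatives run, the adjusted p ranged from 3.88e-07 to 0.189 for Col6a6, from 1.76e-05 to 0.189 for Col15a1, from 4.71e-04 to 0.228 for Col14a1 and from 5.61e-05 to 0.198 for Col2a1. It ranged from 0.0284 to 0.256 for Col19a1, from 0.0181 to 0.796 for Col12a1 and from 0.0136 to 0.251 for Col5a3. Each of these 7 genes had a log2 fold change below 0 in every alternative. DESeq2 on 3 WT and 2 KO samples called 8 of 44, each lower in KO. It called 21% of all tested genes, and 1934 of 18660 were called lower. These lung samples are mixtures of cell types, so fewer cells of a type and less RNA per cell cannot be told apart.

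**Figure D2:**
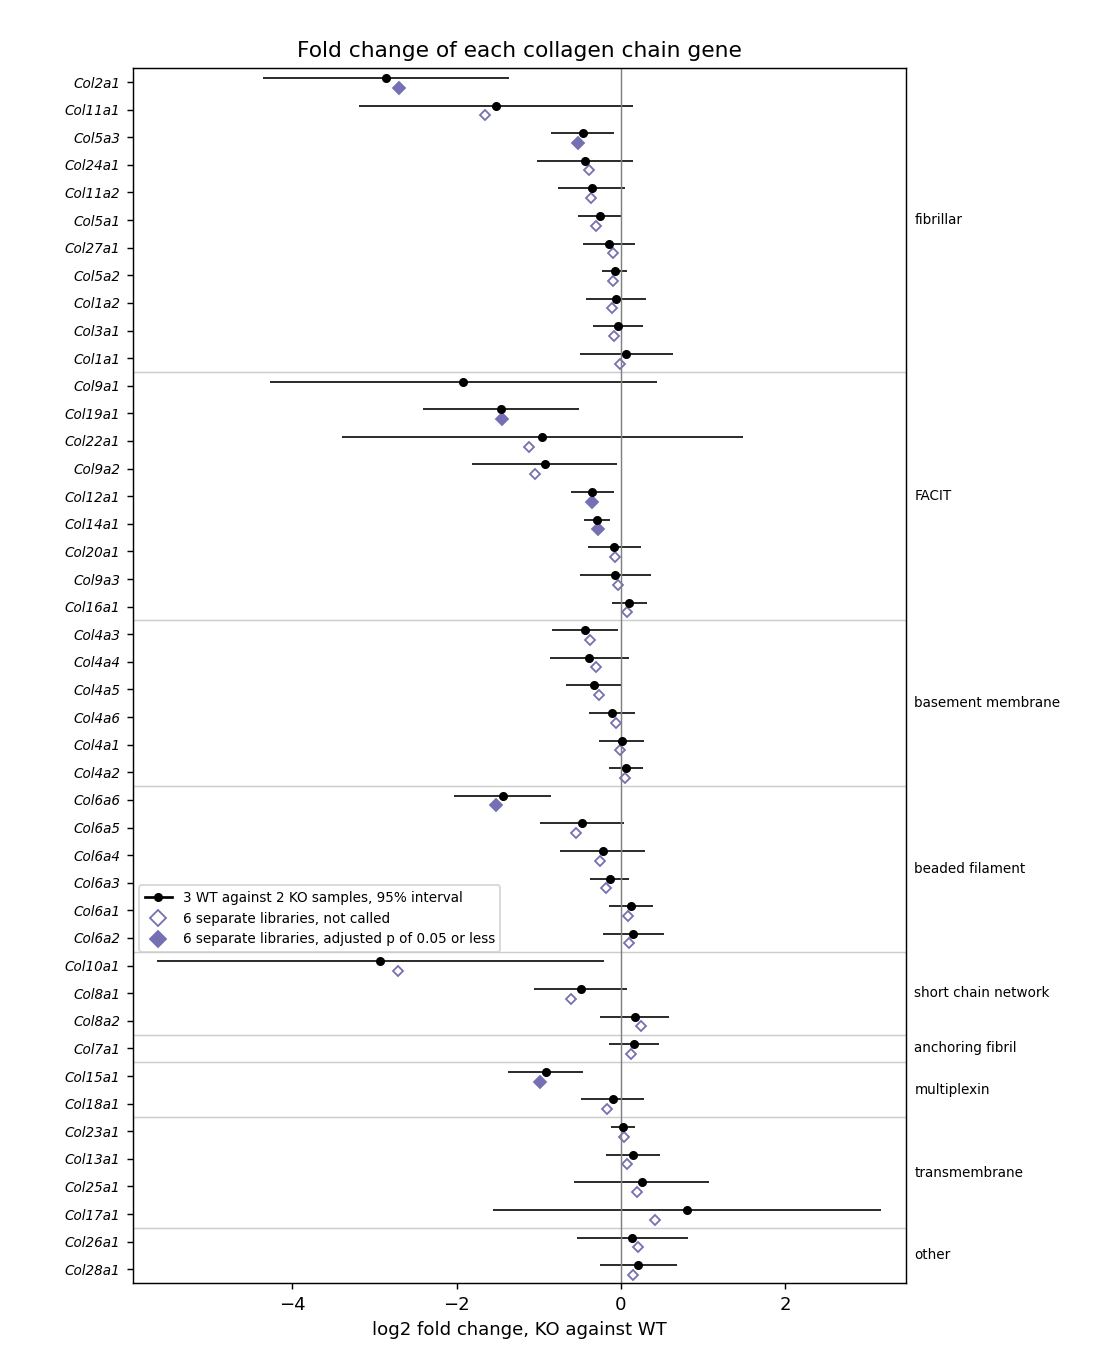
Log2 fold change of each of the 44 genes, KO against WT, by family. Black points with 95% intervals are from the fit of 3 WT and 2 KO samples, in which none was called, and diamonds are from 6 separate libraries, filled for the 7 genes called there, which all lie below 0.

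Among the 11 fibrillar collagens, which form the rope-like fibres, 10 had a log2 fold change below 0 and none was called, with a median of -0.26. With the length and GC trend described below removed, 7 were below 0 and the median was -0.19, and 6 were below 0 with that trend removed from 6 separate libraries. The chains that make up most fibrils were close to 0. Col1a1, a type I chain, had 411, 354 and 543 CPM in WT1 to WT3 and 523, 381 and 396 in KO1 to KO3, a log2 fold change of 0.07 (95% interval -0.50 to 0.63) that turned to -0.01 with 6 separate libraries. Its type I partner Col1a2 had 557, 517 and 676 CPM in WT and 605, 501 and 513 in KO (log2 fold change -0.07, interval -0.43 to 0.30). For both genes WT3 and KO1 were the highest of their genotype and the genotypes overlapped. Col3a1 gave -0.04 (interval -0.34 to 0.26). Over the alternatives run, the log2 fold change ranged from -0.17 to 0.25 for Col1a1, from -0.21 to 0.10 for Col1a2 and from -0.17 to 0.10 for Col3a1. Col5a1 and Col5a2 encode chains of type V, which helps to start fibrils. Col5a1 had 135, 120 and 140 CPM in WT against 120, 99.1 and 101 in KO, every KO library below every WT library, and was at -0.26 ± 0.11 on the log2 scale (estimate ± SE; adjusted p = 0.198). Col5a2 had 123, 130 and 133 CPM against 126, 119 and 115, with overlap and a log2 fold change of -0.08 ± 0.06 (adjusted p = 0.474).

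Col5a3 (chr9:20770050-20815067), the least abundant type V chain, had 24.2, 23.9 and 30.1 CPM in WT and 20.9, 16.9 and 16.5 in KO. The groups did not overlap, and the log2 fold change was -0.47 ± 0.15 (adjusted p = 0.135, or 0.039 with 6 separate libraries). Col2a1 (chr15:97975602-98004695), the fibrillar collagen of cartilage, had WT counts of 82, 57 and 58 and KO counts of 3, 19 and 5, that is 0.811 to 1.12 CPM against 0.0476 to 0.306. Even the highest KO library was below the lowest WT library, with a log2 fold change of -2.86 ± 0.59 (adjusted p = 0.065, or 0.025 with 6 separate libraries). Col11a1, a further cartilage chain, had 40, 44 and 101 counts against 28, 14 and 13, and a log2 fold change of -1.52 ± 0.65 (adjusted p = 0.214) that was -0.85 without WT3, the highest library. Col11a2 was at 5.46 to 7.19 CPM in WT and 4.64 to 4.86 in KO with no overlap (log2 fold change -0.36, adjusted p = 0.227). Over the alternatives run its log2 fold change ranged from -0.44 to -0.23. The minor fibrillar chains Col24a1 and Col27a1 overlapped between genotypes, at -0.44 and -0.14.

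Cartilage markers were examined beside Col2a1. Of these, the markers named here were picked after their values were seen. Acan, the core protein of the main cartilage proteoglycan, had 1.38, 0.868 and 0.817 CPM in WT and 0, 0.0644 and 0.103 in KO, and Comp, a cartilage matrix protein, had 4.19, 1.20 and 8.99 against 0.460, 0.435 and 0.479. Of 12 cartilage markers, 9 were tested, 6 had a log2 fold change below 0 and none was called, with 4 called lower with 6 separate libraries. The median log2 fold change was -0.74, and the 3 above 0 were Matn4, Chad and Hapln1. The summed level of the markers overlapped, at 145 to 161 CPM in WT and 140 to 163 in KO. Most of that sum came from Matn4 (75.2 to 92.3 CPM) and Chad (35.9 to 54.3), so it says little about the rarer markers. The part of cartilage in the Col2a1 difference was not tested.

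The 9 FACIT collagens lie on the surface of fibrils or in other assemblies and carry interrupted helices. Their summed level was 219, 237 and 247 CPM in WT1 to WT3 and 207, 206 and 203 in KO1 to KO3, with every KO library lower. Of the 9 genes 8 had a log2 fold change below 0 and none was called, with a median of -0.35 that was -0.17 with the length and GC trend described below removed. Col14a1 (chr15:55307750-55520803), which coats fibrils and is thought to limit their width, had 71.8, 76.9 and 79.5 CPM in WT and 60.6, 64.1 and 62.6 in KO. The groups did not overlap, and the difference was small but even among libraries, at -0.29 ± 0.06 (adjusted p = 0.067, or 0.016 with 6 separate libraries). Col12a1 (chr9:79598991-79718831), a fibril-bound chain with the longest exon sequence of the family, had 67.6, 85.4 and 79.3 CPM against 60.7, 61.1 and 60.0. WT varied more than KO, the groups did not overlap, and the log2 fold change was -0.35 ± 0.10 (adjusted p = 0.115, or 0.036 with 6 separate libraries).

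For Col19a1 (chr1:24261890-24587472) the WT libraries held 18, 12 and 16 counts and each KO library 5, without overlap, a log2 fold change of -1.46 ± 0.37 (adjusted p = 0.089, or 0.028 with 6 separate libraries). None of the 3 type IX chains of cartilage fibrils was called. Col9a1 had 15, 11 and 6 counts against 0, 2 and 6, at -1.92 ± 0.92 (95% interval -4.27 to 0.44; adjusted p = 0.256), and did not pass the filter with 6 separate libraries. Col9a2 had 47, 34 and 42 counts against 26, 9 and 19 without overlap (-0.93 ± 0.35, adjusted p = 0.170), while Col9a3, which shares 6.07% of its exon bases with Tcfl5 on the opposite strand, was at -0.07. Col22a1 had 152 counts in WT3 and 23 to 51 in the other libraries, so its -0.96 ± 0.96 (adjusted p = 0.576) became 0.34 without WT3. Col16a1 (0.10) was the FACIT gene above 0, and Col20a1 was at -0.08.

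None of the 6 basement membrane collagens was called. Col4a1 and Col4a2, of the common network, had log2 fold changes of 0.01 (95% interval -0.26 to 0.28) and 0.06 (-0.15 to 0.27), and Col4a1 lay on the other side of 0 with 6 separate libraries (-0.02) and with library size alone. The intervals leave out changes larger than these bounds, and depth was not the limit for genes with 51204 to 74587 counts a library. Col4a3, Col4a4 and Col4a5 form the network of alveolar and glomerular basement membranes. Col4a3 had 276, 334 and 303 CPM in WT and 190, 258 and 257 in KO, Col4a4 had 219, 277 and 249 against 155, 226 and 222, and Col4a5 had 156, 171 and 161 against 111, 150 and 142. In each of the 3 genes KO1 was the lowest library. Col4a3 and Col4a5 did not overlap between genotypes, and Col4a4 did. The log2 fold changes were -0.44 ± 0.16 (adjusted p = 0.161), -0.38 ± 0.19 (0.265) and -0.33 ± 0.13 (0.188) for Col4a3, Col4a4 and Col4a5. Each was closer to 0 without KO1, at -0.24, -0.15 and -0.15, and with the length and GC trend removed, at -0.27, -0.22 and -0.25. DESeq2 called Col4a3, at the low end of a range of adjusted p from 0.0285 to 0.403 over the alternatives. Without WT3 and KO1 the values were -0.25, -0.15 and -0.16, and with the trend removed from 6 separate libraries -0.21, -0.14 and -0.18. Col4a6, whose product pairs with that of Col4a5 in other tissues, was at 48.1 to 49.5 CPM in WT and 39.8 to 50.6 in KO (-0.11). KO1 was its lowest library, and its log2 fold change was above 0 in 3 of 15 alternatives, with 0.05 without WT3 and KO1.

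The 6 genes of type VI beaded filaments, which lie near cells and link them to fibrils, also differed among themselves. The main chains Col6a1 and Col6a2 had log2 fold changes of 0.13 and 0.15. Col6a1 had 396, 363 and 422 CPM in WT and 466, 390 and 391 in KO, and Col6a2 had 302, 259 and 335 against 367, 290 and 301. KO1 was the highest library for both, the genotypes overlapped, and without KO1 the log2 fold changes were -0.01 and -0.02. Col6a3, the longest of the main chains, had 241, 228 and 256 CPM against 237, 198 and 205 (-0.14 ± 0.09, adjusted p = 0.406). Its log2 fold change ranged from -0.27 to 0.02 over the alternatives run, and was -0.22 without WT3 and KO1. Col6a4, Col6a5 and Col6a6 lie next to each other on chromosome 9 and encode chains that can take the place of the Col6a3 product. Col6a6 (chr9:105687809-105828160) had WT counts of 437, 318 and 368 and KO counts of 150, 120 and 86, that is 4.53 to 6.14 CPM against 1.47 to 2.38. The groups were far apart, with a log2 fold change of -1.44 ± 0.23 (95% interval -2.03 to -0.85; adjusted p = 0.051, or 0.010 with 6 separate libraries). Its neighbour Col6a5 had 4.51 to 5.97 CPM against 3.32 to 4.44, also without overlap (-0.48 ± 0.20, adjusted p = 0.204), and Col6a4 overlapped (-0.22 ± 0.20, adjusted p = 0.537).

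The multiplexins Col15a1 and Col18a1 encode proteoglycan collagens that sit beside basement membranes of vessels, muscle and fat. Col15a1 (chr4:47208161-47313167) had 53.7, 42.6 and 55.6 CPM in WT and 30.8, 21.8 and 23.9 in KO. All KO libraries lay below all WT libraries, with a log2 fold change of -0.91 ± 0.18 (95% interval -1.37 to -0.46; adjusted p = 0.060, or 0.012 with 6 separate libraries). Col18a1, the source of endostatin, was at 87.3 to 110 CPM in WT and 79.6 to 104 in KO (-0.10 ± 0.15, adjusted p = 0.714). KO1 was its highest KO library, and over the alternatives run its log2 fold change ranged from -0.31 to -0.02.

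Markers of fat and heart muscle also had lower levels in KO. The summed level of 10 adipocyte markers was 1206, 1757 and 1112 CPM in WT1 to WT3 and 292, 373 and 376 in KO1 to KO3, with log2 fold changes below 0 for all 10 and 2 of them called. That of 8 cardiomyocyte markers was 6557, 2761 and 2292 against 1312, 1140 and 1153, with all 8 below 0 and none called. Leptin (Lep), defining for fat, went from a mean of 16.8 CPM to 1.59. Myl2, of ventricular muscle, had 24.0, 0.157 and 10.1 CPM in WT and 0.111 to 0.129 in KO, with WT2 close to the KO level. The summed level of 12 fibroblast markers overlapped, at 3806 to 4229 CPM in WT and 3603 to 4568 in KO, as did that of 8 endothelial markers. Of the fibroblast markers 5 were above 0 and 7 below, with a median of -0.07 and none called. Tcf21 was at 0.32 and Mfap4 at 0.19. At the other end, and also named after their values were seen, Pi16 was at 68.2 to 75.5 CPM in WT and 31.9 to 49.3 in KO (-0.83 ± 0.18, adjusted p = 0.071), and Pdgfra at 347 to 356 against 238 to 298 (-0.37 ± 0.09, adjusted p = 0.086), and both were called lower with 6 separate libraries (0.018 and 0.024). With the length and GC trend removed they were at -0.80 and -0.15. The 6 lung epithelium markers summed to 42244 to 45927 CPM in WT and 60097 to 69664 in KO, with all 6 above 0 and 4 called. The part of these cell types in the Col15a1 and Col6a6 differences was not tested.

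**Figure D3:**
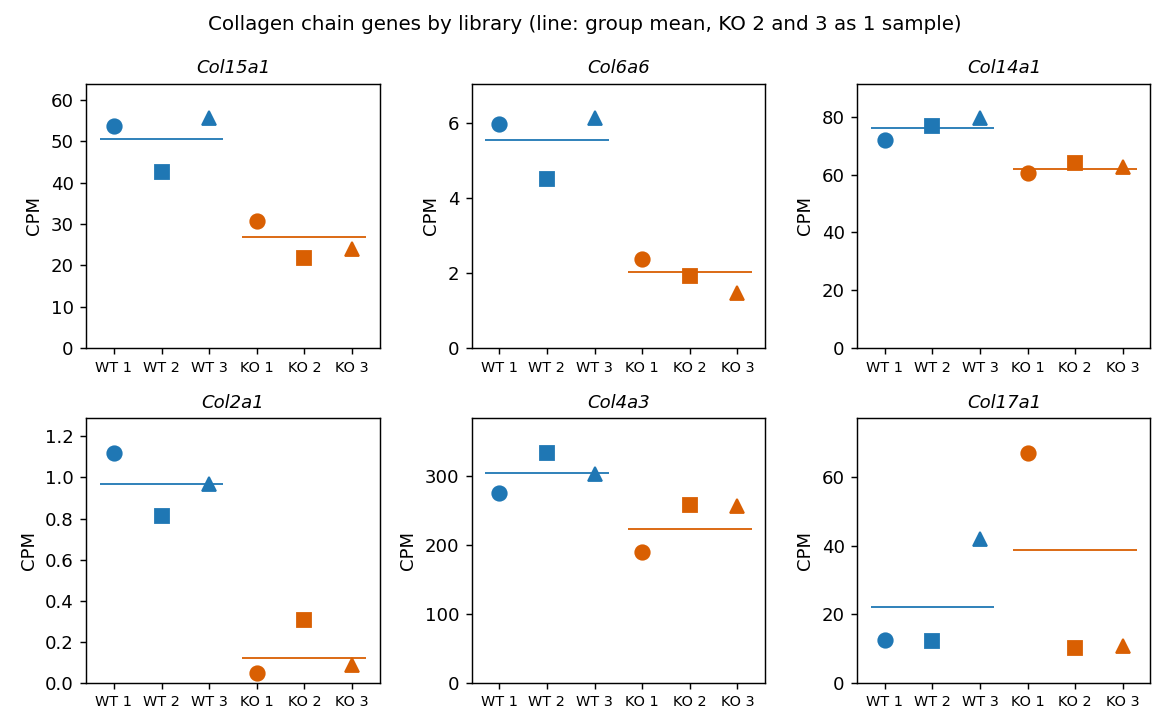
CPM of 6 collagen chain genes in each library, with lines at the group means and KO2 and KO3 as 1 sample. Col15a1, Col6a6, Col14a1, Col2a1 and Col4a3 have every KO library below every WT library, while Col17a1 is high in WT3 and KO1, at 41.9 and 67.0 CPM, and 10.3 to 12.4 CPM elsewhere.

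The 3 short chain network genes ranged widely. Col10a1, made by hypertrophic cartilage, had WT counts of 66, 25 and 43 and KO counts of 0, 5 and 13, with no overlap and a log2 fold change of -2.93 ± 1.06 (adjusted p = 0.162). Col8a1 and Col8a2 encode type VIII chains of vessel walls. Col8a1 was at 15.4 to 19.5 CPM in WT and 9.33 to 15.5 in KO (-0.49 ± 0.22, adjusted p = 0.232), while Col8a2 was at 25.6 to 28.2 against 24.8 to 36.7 (0.17 ± 0.16, adjusted p = 0.573). Without WT3 and KO1 both were called, Col8a1 lower at -0.79 (adjusted p = 0.014) and Col8a2 higher at 0.40 (0.029), the low ends of ranges of adjusted p up to 0.562 and 0.823 over the alternatives run. No other collagen was called higher in any of these alternatives.

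The 4 transmembrane collagens all had log2 fold changes above 0 and none was called, and Col23a1 turned below 0 when library size alone set the scale. Col17a1, the hemidesmosome chain of stratified epithelium, had 12.4, 12.1 and 41.9 CPM in WT and 67.0, 10.3 and 10.8 in KO. Only WT3 and KO1 were high, and the same libraries held the squamous epithelium markers, whose 15 genes summed to 4847 CPM in WT3, 9249 in KO1 and 27.9 to 39.2 in the other 4. The log2 fold change of 0.81 ± 0.93 (adjusted p = 0.625) became -0.22 without WT3 and KO1. The part of squamous tissue in the Col17a1 level was not tested. Col13a1 was at 75.9 to 84.0 CPM in WT and 76.6 to 102 in KO (0.15), where KO1 alone was above WT, and without KO1 its log2 fold change was -0.08. Col23a1 was at 124 to 132 against 127 to 136 (0.03, 95% interval -0.12 to 0.17). Col25a1 had WT counts of 44, 24 and 32 and KO counts of 42, 27 and 34 (0.25 ± 0.32, adjusted p = 0.665).

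Col7a1, which forms anchoring fibrils below epithelium, was at 26.1 to 33.1 CPM in WT and 29.9 to 34.5 in KO (0.16). Outside the named families, Col28a1 had 2.66, 3.46 and 2.82 CPM in WT and 3.82, 3.13 and 2.96 in KO (0.21 ± 0.18, adjusted p = 0.522), and Col26a1 was at 0.14. Both overlapped between genotypes.

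Collagen transcripts are long. The union of annotated exons had a median of 7542.5 bases over the 44 genes (3095 for Col9a2 to 15228 for Col12a1), against 3785.5 over all tested genes. Across 18524 tested genes with a length, longer genes had lower fold changes, with a Spearman rho of -0.33, given as a description, since genes share the libraries and are not replicates. The median log2 fold change of all tested genes was 0.10 at 2 to 4 kb, close to 0 at 4 to 6 kb, -0.06 at 6 to 8 kb and -0.16 at 8 kb or more. In that longest class the median deviation from the WT mean was -0.02, 0.03 and -0.01 in WT1 to WT3 and -0.21, -0.13 and -0.14 in KO1 to KO3, so each KO library showed the shift.

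Collagens were read against genes of their own length. The 19 collagens of 8 kb or more had a median of -0.22 against the class median of -0.16, and 7 of them had every KO library below every WT library, where 48.0% of all tested genes of that length did. The 15 of 6 to 8 kb had a median of -0.29 against -0.06, with 6 showing that separation against 30.8% of the class. The 7 of 4 to 6 kb had a median of 0.13, where that of the class was close to 0, and none separated. The 3 of 2 to 4 kb, Col9a2, Col9a3 and Col10a1, had a median of -0.93 against 0.10. In all, 25 of the 44 lay below the median of their length class.

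When a smooth trend in exon length and GC content was taken out of each library, rho across all genes became -0.01. The collagen median became -0.10 and that of all tested genes 0.05, so the distance between them changed little. The number of collagens below 0 went from 30 to 26 (59.1%, against 41.8% of all tested genes), with Col3a1, Col1a2, Col5a2 and Col6a3 passing to above 0. Col12a1 went from -0.35 to -0.06 and Col14a1 from -0.29 to -0.17, while Col15a1 (-0.88), Col6a6 (-1.31) and Col2a1 (-2.84) kept most of their size. In this fit no gene of the genome was called, with 3469 at an unadjusted p of 0.05 or less. With the same trend removed from 6 separate libraries, 5 of 43 collagens were called, each lower in KO: Col15a1, Col6a6, Col5a3, Col2a1 and Col19a1. That fit called 13.2% of all tested genes, and 702 of 17877 were called lower. Col14a1 and Col12a1 were no longer called (adjusted p = 0.063 and 0.542). Length and genotype moved together in these libraries, and whether length itself bears on the collagen values was not tested beyond this.

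**Figure D4:**
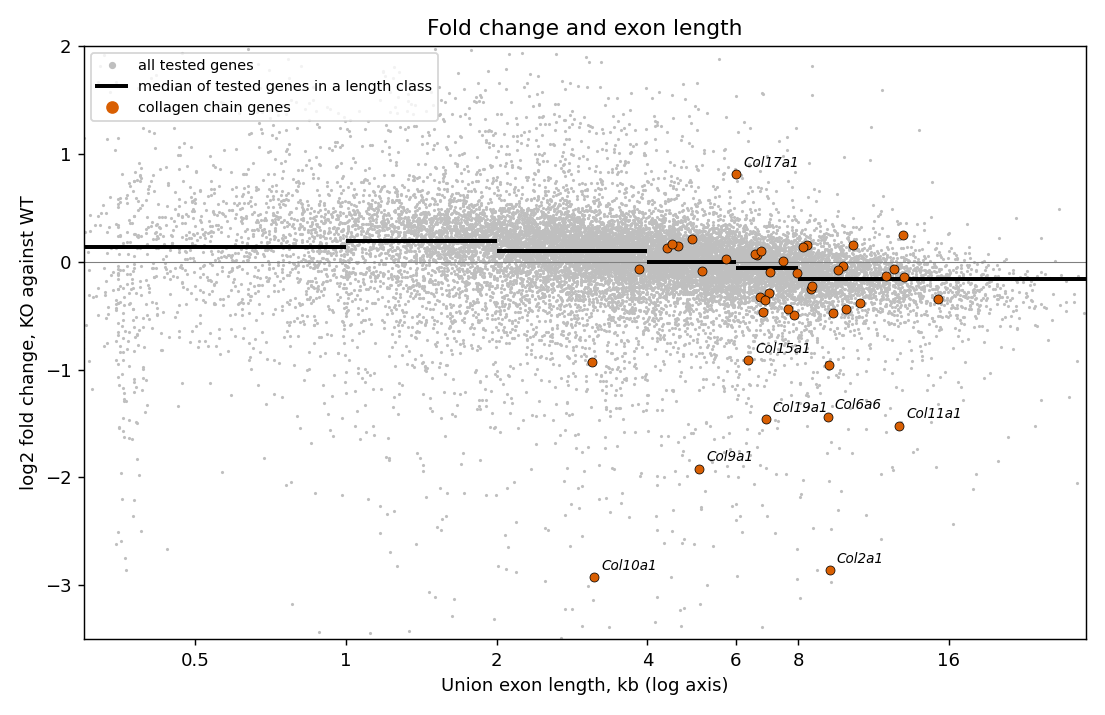
Log2 fold change, KO against WT, by union exon length on a log axis for all tested genes (grey; 334 of 18524 lie outside the axes), with the median of each length class (black) and the 44 collagens (orange). The class median goes from 0.19 at 1 to 2 kb to -0.16 at 8 kb or more, and most long collagens lie close to it, with Col2a1, Col11a1, Col6a6, Col19a1, Col22a1 and Col15a1 well below.

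Since chains of a type join in fixed proportions, the ratio of levels per kilobase was taken within each library for 7 pairs of chains. A ratio within a library also removes differences in depth. Col3a1 and Col1a1 belong to different types, III and I, so the reason of fixed proportions does not apply to that pair. The log2 ratio of Col4a1 to Col4a2, the pair whose start regions overlap above, was 0.20, 0.17 and 0.26 in WT1 to WT3 and 0.19, 0.13 and 0.11 in KO1 to KO3, a range of 0.14. Col4a3 to Col4a4, the pair with adjoining starts, gave 0.57, 0.51 and 0.53 in WT and 0.54, 0.43 and 0.45 in KO, also within 0.14, while the level of Col4a3 ran from 190 to 334 CPM across the same libraries. The genotypes differed by -0.05 in both ratios (exact permutation p = 0.4 and 0.5, n = 3 and 2), and since 3 against 2 samples cannot give a p below 0.1, these tests do not show that the ratios are the same. In both ratios KO2 and KO3 lay below every WT library and KO1 among them.

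The ratio of Col6a3 to Col6a1 was the one that separated the genotypes, at -2.02, -1.97 and -2.02 in WT and -2.28, -2.28 and -2.24 in KO. The difference of -0.26 had an exact permutation p of 0.1, the smallest this design allows, and 0.7 after Benjamini-Hochberg adjustment over the 7 ratios. These genes differ in length, with longest transcripts of 10106 and 4100 bases, and after the removal of the length and GC trend their log2 fold changes were 0.02 and 0.09. The ratio of Col1a1 to Col1a2 was -0.59, -0.69 and -0.46 in WT and -0.36, -0.54 and -0.52 in KO, a difference of 0.14 (exact permutation p = 0.4, n = 3 and 2). The other 3 ratios, Col6a1 to Col6a2, Col3a1 to Col1a1 and Col5a2 to Col5a1, differed by -0.03, -0.11 and 0.18, with exact permutation p of 0.9, 0.7 and 0.3, and overlapped between genotypes.

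**Figure D5:**
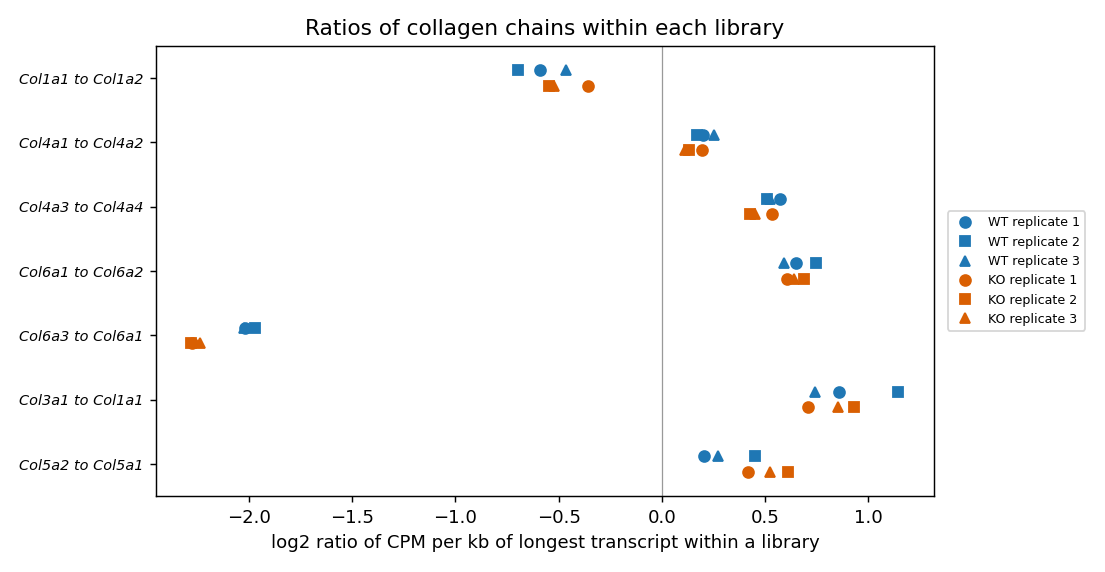
Log2 ratio of CPM per kilobase of longest transcript for 7 pairs of collagen chains in each library, WT in blue and KO in orange. Col6a3 to Col6a1 separates the genotypes (WT near -2.0 and KO near -2.3), and the other 6 pairs overlap.

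Genes that act on collagen were taken from 5 lists. Of 20 genes for chain modification and folding, 12 were above 0, 8 below and none was called, with a median of 0.04. The most abundant per length, P4hb (a subunit of prolyl hydroxylase, which stabilises the helix) and Serpinh1 (the collagen chaperone HSP47), gave 0.20 and -0.13, with adjusted p of 0.204 and 0.195. Of 13 genes for propeptide removal and crosslinking none was called (7 above 0, 6 below), with Pcolce at 0.20 and Pcolce2 at 0.03, both enhancers of propeptide removal. None of 14 genes for collagen breakdown was called (7 above, 7 below), and the most abundant per length, the inhibitors Timp2 and Timp3, had -0.07 and -0.25. The value farthest from 0 in that list was of a further inhibitor, Timp4, at -1.15 ± 0.29 (adjusted p = 0.085), and Mmp9, a gelatinase, was at -0.74 ± 0.21 (0.106); both were named after their values were seen.

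Dcn, or decorin, which binds fibrils and regulates their width, was called lower among 9 tested proteoglycans and related proteins. It had 378, 410 and 414 CPM in WT and 233, 201 and 200 in KO, far apart and with a log2 fold change of -0.88 ± 0.09 (adjusted p = 0.045). The abundant Sparc and Bgn, which bind collagen, gave 0.27 and 0.09 and were not called. Of 9 collagen receptors, 7 were below 0 and Itga1, the integrin subunit that binds type IV collagen, was called lower. Itga1 had 212, 227 and 222 CPM in WT and 136, 161 and 148 in KO (-0.59 ± 0.08, adjusted p = 0.045), while Itgb1, its partner, gave -0.02 and Ddr1 0.14. Neither was called when WT1, WT2, WT3 or KO1 was left out (adjusted p of 0.0767 to 0.189), and Itga1 was not called without KO3 (0.051). With the length and GC trend removed Dcn was at -0.71 (adjusted p = 0.107) and Itga1 at -0.27 (0.132). With 6 separate libraries, the calls in the 5 lists were 1 higher for modification and folding (P4ha2, 0.31), 1 lower for propeptide removal and crosslinking, 2 lower and 1 higher among proteoglycans, 3 lower and 1 higher in breakdown and 3 lower among receptors, where that fit called 18.9% of all tested genes and 9.07% lower.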

How the data were processed

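Lung RNA of 3 WT and 3 KO mice was sequenced. The authors deposited raw counts, which per the labels and methods were made by trimming reads with Trimmomatic 0.36, aligning them to GRCm38 with STAR 2.5.3a, processing with Picard 2.9.0 and counting reads per gene with HTSeq 0.6.0. The annotation release and the use of strand are not given in the sources used here, so genes that overlap on opposite strands are uncertain. Total counts per library ranged from 59134950 to 71354388.

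The tests used edgeR 4.0.16 under R 4.3.3: TMM scaling, filterByExpr, quasi-likelihood test (two-sided), and Benjamini-Hochberg adjustment over 18660 genes, with calls at an adjusted p of 0.05 or less. KO2 and KO3 were summed as 1 sample: their variance was 1.70 to 1.93 times that of counting for genes below 20000 counts (3.35 above), against 1.80 to 21.8 (38.6 to 162.5) in other pairs. DESeq2 1.42.0, 6 separate libraries, other filters and scaling, left-out libraries, a replicate block and a length and GC offset (splines with 5 degrees of freedom) were alternatives. Lengths come from GENCODE M21, which holds 97.5% of the gene identifiers. A standard error is the absolute log2 fold change over the root of F. Scripts were tested on simulated data. By rule, values in every library are given for the 3 collagens most abundant per length, those called in the fit above or with 6 separate libraries, the 3 largest log2 fold changes of each sign and the chains in a ratio; Col11a1, Col9a2 and Col4a5 were added after their values were seen, as were the single markers and list genes named. The collagens and all gene lists were chosen with earlier results of these data known. Of the list genes, 6 were matched through a current symbol.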

Additional observations from a re-analysis of the deposited data

How the results depend on the processing

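The number of collagens called was 0 with library size alone and with the length and GC offset, as in the report, but 7 with 6 separate libraries, 8 with DESeq2, 1 without a filter on low counts (Col6a6), 2 with at least 10 counts in every library (Col15a1, Col6a6), 6 without WT3 and KO1 (5 lower, and Col8a2 higher, in a test in which the lone KO sample is assumed to vary like WT) and 5 with 6 separate libraries and the offset, an alternative chosen after seeing the data. Leaving out 1 library gave 0 to 1, with Col2a1 called without KO2 and Col6a6 without KO3. Over all genes the count of 426 became 3402 with 6 separate libraries, 3919 with DESeq2, 937 with at least 10 counts, 0 with the offset, 2256 without WT3 and KO1 and 2366 with 6 separate libraries and the offset, and 0 to 418 with 1 library left out: 0 without WT1, WT2 or WT3 and 17 without KO1. The collagen median of -0.14 stayed between -0.22 and -0.08 throughout. In all, 26 of the 44 collagens had the same sign in every alternative run for them, and 11 were called in at least 1 of 15. Neither the 26 nor the 11 was counted over all tested genes, so both lack a share to be read against. The cause of the differences between alternatives was not tested.

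With the replicate block, fitted on 6 separate libraries, 1157 genes and 3 collagens were called (Col6a6, Col15a1 and Col14a1). The numbers do not pair the samples: deviations of same-numbered libraries had Pearson correlations of -0.66, 0.69 and -0.78. Depth limits the rarest collagens: Col9a1, Col10a1, Col2a1 and Col19a1 had 19 counts or fewer in each KO library. Replicates are separate mice by the study's account, and with 2 KO samples p-values rest on few degrees of freedom.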
